A study of Homo sapiens with 9 samples.

Results

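The 10 genes described here encode AP-1 and EGR transcription factors and their companion IER2. They are the FOS family (FOS, FOSB, FOSL1 and FOSL2), the JUN genes JUN and JUND, the EGR genes EGR1, EGR2 and EGR3, and the immediate early gene IER2. They were chosen by symbol, and each matched 1 of the 25593 loci in each table. Gene expression was measured by RNA sequencing of 9 neural crest-like cultures, all grown from H9 (an established line of human embryonic stem cells), with 3 replicate cultures in each of 3 media. All cells were differentiated for 6 days with 10 µM SB431542, which blocks the receptors of Nodal, Activin and TGF-β, then sorted for CD271 and expanded on fibronectin in 5% oxygen. The labels disagree on whether the sorted cells carried CD73. Group F was expanded with FGF2 (5 to 10 ng/ml) and no inhibitor. Group FSB was expanded with the same FGF2 range and SB431542 (3 to 5 µM). Group F_FSB spent 4 passages in FSB medium and then 3 passages in F medium. Every culture was harvested at passage 6 to 7, and all derive from 1 cell line, so the replicates measure culture spread and not variation between donors.

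Immediate early genes are transcribed within minutes of a stimulus without new protein synthesis. Growth factor signalling through ERK activates ELK factors, which act with SRF at CArG boxes, and the messages are then lost quickly. FOS proteins pair with JUN proteins to form AP-1, while JUN proteins can also pair with each other. EGR proteins are zinc finger factors that bind GC-rich sites and are held back by the NAB co-repressors. FGF2, present in all 3 media, is a classic inducer of this response, and TGF-β is a known inducer of several AP-1 genes.

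The values are FPKM, fragment counts scaled to transcript length and library size, so levels can be compared between genes per unit of length. F_FSB replicate 2 was the shallowest library, with an estimated depth of 62.3% of the deepest, and the other 8 lay between 83.5% and 100%. Crest markers were only partly present. TFAP2A, TWIST1, ETS1 and SNAI2 were above 9 FPKM in every library, whereas FOXD3 was at most 0.025 FPKM and SOX10 at most 0.0993 FPKM outside FSB replicate 3, where it was 1.69. CD271 itself (NGFR) ran from 104 to 134 FPKM in FSB, from 0.725 to 41.3 in F and from 1.50 to 7.26 in F_FSB. In bulk samples, fewer cells expressing a gene and less RNA per cell cannot be told apart.

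The sequences before the start sites are shown first because the motifs they hold differ between the genes. For 9 of the 10 genes, the 400 bases before the deposited start were read from GRCh37 and searched on both strands for 4 motifs: the CArG box of SRF, the AP-1 site TGANTCA, the CRE-type site TGANNTCA, which ATF and CREB factors and some AP-1 dimers bind, and the EGR site GCGNGGGCG. The CArG box was found before 3 of these 9 genes, FOS, EGR1 and EGR3, and before 1.84% of all 19506 loci searched. The AP-1 site was found before 1 of the 9, FOSL2, and before 8.37% of all loci. The CRE-type site was found before 1, JUND, and before 13.4% of all loci, and the EGR site before 2, JUND and EGR1, and before 11.7%. A match describes the letters and does not show binding.

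The stretches below show matches, in capitals, written 5′ to 3′ along the gene's strand. In FOS the capitals are the CArG box (chr14:75745171-75745270, plus strand). EGR1 has 4 CArG boxes, of which the distal stretch (chr5:137800781-137800840, plus strand) holds 2, and the proximal stretch (chr5:137800961-137801110, plus strand) holds an EGR site followed by the other 2. The box of FOS and the first proximal box of EGR1 have the same 10 letters. In FOSL2 the capitals are the AP-1 site (chr2:28615699-28615758, plus strand), and in JUND they are the CRE-type sites (chr19:18392473-18392642, minus strand).
FOS: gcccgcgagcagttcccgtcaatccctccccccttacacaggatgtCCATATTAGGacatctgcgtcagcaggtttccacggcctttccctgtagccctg
EGR1 distal: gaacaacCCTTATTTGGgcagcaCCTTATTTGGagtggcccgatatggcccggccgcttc
EGR1 proximal: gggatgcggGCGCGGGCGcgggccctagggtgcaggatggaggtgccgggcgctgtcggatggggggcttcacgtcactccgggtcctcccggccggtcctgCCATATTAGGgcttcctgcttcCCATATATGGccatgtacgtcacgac
FOSL2: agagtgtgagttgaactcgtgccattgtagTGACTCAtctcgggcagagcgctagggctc
JUND: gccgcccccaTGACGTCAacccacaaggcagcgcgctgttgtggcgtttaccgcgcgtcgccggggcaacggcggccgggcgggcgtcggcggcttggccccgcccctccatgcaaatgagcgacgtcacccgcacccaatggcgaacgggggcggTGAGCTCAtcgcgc

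Across the 9 libraries JUND, JUN and IER2 were the most abundant of the 10 genes, at medians of 56.7, 28.0 and 24.7 FPKM. FOSL2 and FOSL1 followed at 10.6 and 9.06 FPKM and EGR1 at 5.13. FOS, FOSB, EGR2 and EGR3 were near the lower end of the scale, at medians of 0.486, 0.314, 0.176 and 0.0246 FPKM. The abundant genes were also the steady ones. The highest library was 1.63 times the lowest for JUND, 1.81 times for IER2, 1.93 times for JUN and 2.05 times for FOSL2, against 5.32 times for FOSL1, 5.37 times for FOS, 23.9 times for FOSB and 29.3 times for EGR1. EGR2 and EGR3 were listed at 0 in some libraries and have no such ratio. For FOS, FOSB, EGR2 and EGR3 the Cufflinks intervals were wide against the low values, so counting error can add to their ranges. The highest and lowest FOS libraries still differed beyond it, with intervals of 1.28 to 2.17 FPKM in F replicate 1 and 0.147 to 0.490 in F replicate 2. Intervals of FOSB, EGR2 and EGR3 are given below.

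**Figure D1:**
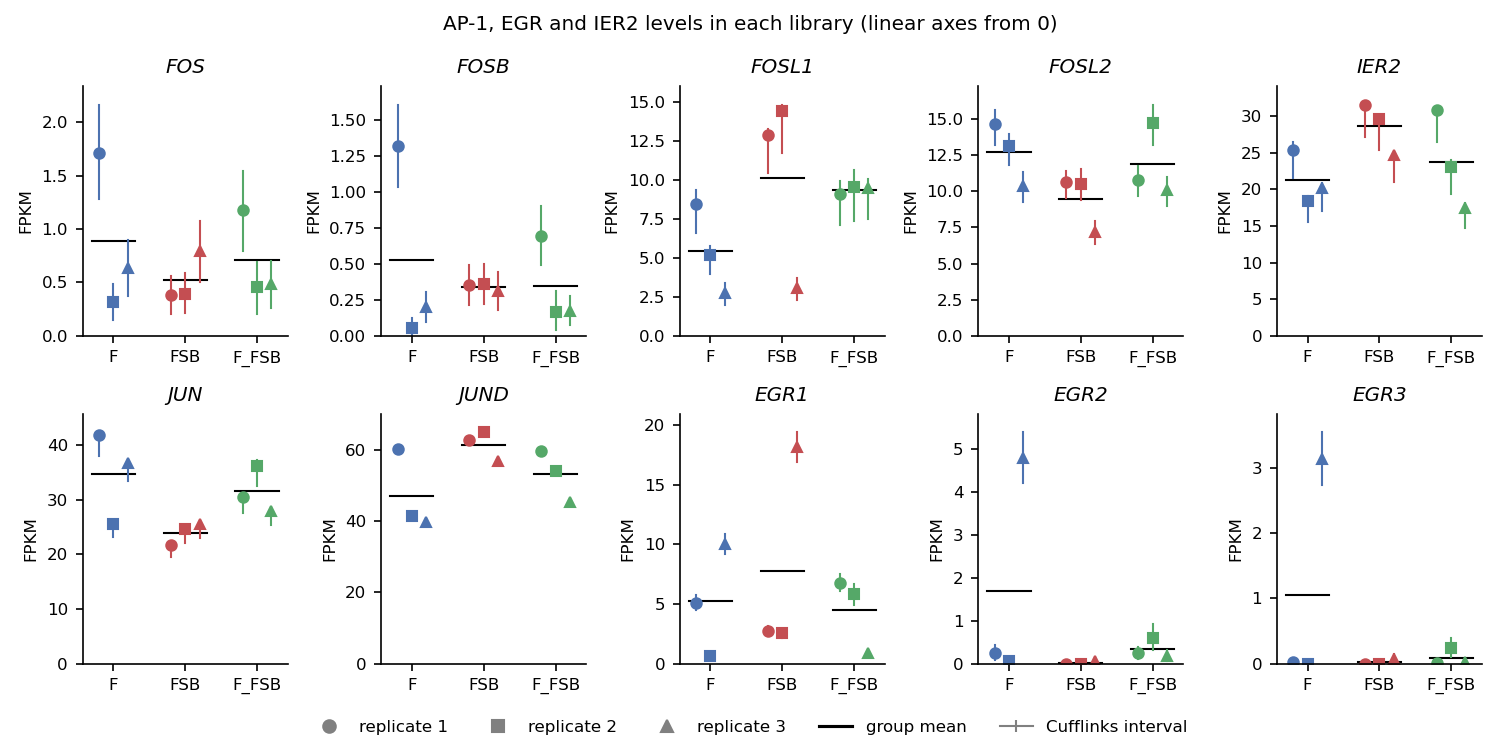
Deposited FPKM (linear axes from 0) of the 10 genes by medium. Each point is 1 library, vertical lines are the Cufflinks intervals (not drawn for JUND, whose FPKM lies above its interval) and black bars are group means; EGR1 peaks in FSB replicate 3 at 18.1 FPKM and EGR2 and EGR3 in F replicate 3 at 4.80 and 3.15.

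FSB was set against F to see what continued receptor blockade does to these genes during expansion. None of the 6 genes that could be tested passed, while 41.9% of all 13216 genes tested passed (limma on log2(FPKM + 1), Benjamini-Hochberg adjusted p below 0.05, all 9 libraries in 1 fit). At an unadjusted p below 0.05, 2 of the 6 genes (JUN and JUND) and 51.1% of all genes were called. FOS, FOSB, EGR2 and EGR3 were not tested because fewer than 3 libraries reached 1 FPKM. The comparison of F_FSB with FSB, which follows withdrawal of the inhibitor, also gave 0 of 6, against 41.8% of all genes, and 0 of 6 and 51% at an unadjusted p below 0.05. For F_FSB with F, the same final medium after different histories, the counts were 0 of 6 and 0.00757% of all genes, and at an unadjusted p 0 of 6 and 9.04%. The 0.00757% is a single gene, GAS1, a growth arrest gene named after its result was seen. The comparisons share groups and are not independent of each other.

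Changes are differences in mean log2(FPKM + 1) and understate the change of low genes. The median change of all genes was 0.14 for FSB minus F and -0.13 for F_FSB minus FSB. Scaling libraries by median ratios moved these to 0.0023 and 0.0046. With that scaling 2424 genes were higher and 2461 lower in FSB than in F, against 3763 and 1773 with the deposited values. For F_FSB minus FSB it gave 2505 higher and 2524 lower, against 1805 and 3722. Quantile normalization gave 2636 higher and 2316 lower for the former and 2318 and 2756 for the latter.

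JUN (chr1:59246463-59249785), the founding AP-1 subunit and a target of the kinase JNK, had 42.0, 25.6 and 36.8 FPKM in F, 21.8, 24.6 and 25.6 in FSB and 30.6, 36.2 and 28.0 in F_FSB. All 3 FSB libraries lay below all F and all F_FSB libraries. F replicate 2 and FSB replicate 3 were almost level. The change was -0.49 for FSB minus F (95% interval -0.90 to -0.09, limma, adjusted p = 0.0545) and 0.38 for F_FSB minus FSB (95% interval -0.03 to 0.79, adjusted p = 0.119). The F and FSB libraries did not overlap for 57.9% of all genes, with FSB higher for 38.7% and lower for 19.2%. The F_FSB and FSB libraries did not overlap for 55.8%, with F_FSB higher for 19.2% and lower for 36.6%. F replicate 2 bears on the call. Without it JUN was lower in FSB than in F by a passing -0.69 (limma, adjusted p = 0.00853) and higher in F_FSB than in FSB by 0.38 (adjusted p = 0.0374). Scaling by median ratios also gave passing changes of -0.64 and 0.53 (limma, adjusted p = 0.0168 and 0.0341), as did quantile normalization with -0.65 and 0.50 (adjusted p = 0.0174 and 0.0464). In each of these comparisons 13 of 17 alternatives did not pass. For FSB minus F the change was -0.35 without F replicate 1 and -0.43 without FSB replicate 1 (limma, adjusted p = 0.153 for each). For F_FSB minus FSB it was 0.29 with scaling to the same sum and 0.28 without F_FSB replicate 2 (limma, adjusted p = 0.236 and 0.282). Between F_FSB and F the JUN change was -0.11 (95% interval -0.52 to 0.29, adjusted p = 0.842).

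JUND (chr19:18390563-18392432), a JUN protein that is present in resting cells and needs no stimulus, had 60.2, 41.3 and 39.8 FPKM in F. It had 62.6, 64.9 and 56.7 in FSB and 59.6, 54.0 and 45.4 in F_FSB. F replicate 1 reached into the range of FSB, and the other F libraries lay below it. The change was 0.40 for FSB minus F (95% interval 0.01 to 0.79, limma, adjusted p = 0.0905) and -0.21 for F_FSB minus FSB (95% interval -0.60 to 0.17, adjusted p = 0.341). Between F_FSB and F it was 0.19 (95% interval -0.20 to 0.57, adjusted p = 0.728). Without F replicate 1 JUND was higher in FSB than in F by a passing 0.59 (limma, adjusted p = 0.0122). With scaling by median ratios or quantile normalization the change was 0.25 and did not pass (limma, adjusted p = 0.274 and 0.266). Without F replicate 3 it was 0.29 (limma, adjusted p = 0.247). Of 17 alternatives for this change, 15 did not pass. The deposited FPKM of JUND was above the Cufflinks interval in all 9 libraries, so no interval within a library is given for it.

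The balance of JUN and JUND within a library does not depend on how libraries are scaled. JUN made up 41.1%, 38.3% and 48.0% of the JUN plus JUND level in F and 25.8%, 27.5% and 31.1% in FSB. In F_FSB it made up 33.9%, 40.1% and 38.2%. Every FSB library was below every other library, and F and F_FSB overlapped. For single genes the F and FSB libraries did not overlap for 57.9%, and the F_FSB and FSB libraries for 55.8%. No such figure was computed for shares of a pair. The share also rests on JUND, whose deposited FPKM lay above its Cufflinks interval in all 9 libraries. The remaining JUN gene, JUNB (chr19:12902310-12904125), whose protein often opposes JUN, is not among the 10 but completes the family. It had 2.87, 3.27 and 3.88 FPKM in FSB and between 14.3 and 21.1 in the other 6 libraries, and it fell in FSB against F by 2.15 on the log2 scale (limma, adjusted p = 0.00011). Of the summed level of the 3 JUN genes, JUND took 69.2% ± 3.04 in the FSB cultures, against 46.7% ± 3.24 in F and 51.9% ± 3.40 in F_FSB (SD, n = 3). JUNB took 3.77% ± 0.646 in FSB, against 18.6% ± 4.02 in F and 17.2% ± 1.53 in F_FSB.

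**Figure D2:**
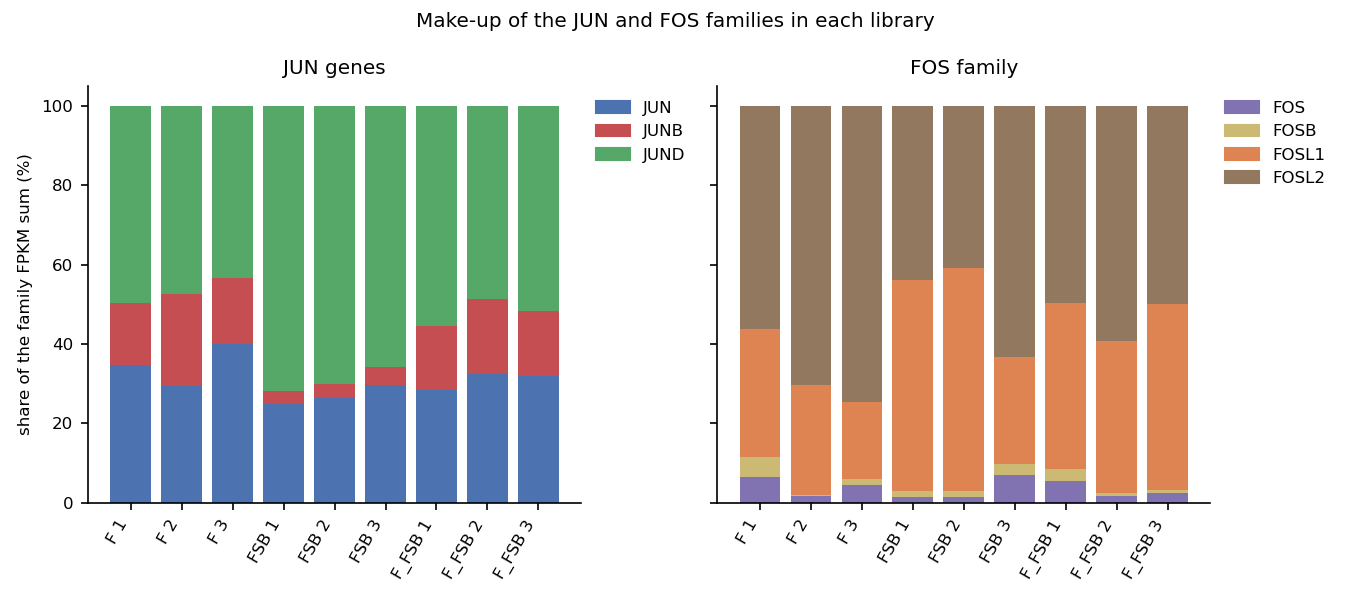
Share of the summed FPKM of the JUN genes (left) and FOS family (right) held by each gene, 1 bar per library. JUND takes between 65.8% and 71.7% of the JUN sum in the FSB libraries and between 43.2% and 55.3% in the others; FOS and FOSB are thin bands throughout.

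FOS (chr14:75745481-75748937), the classic short-lived AP-1 partner of JUN, had 1.71, 0.318 and 0.631 FPKM in F. It had 0.382, 0.389 and 0.797 in FSB and 1.17, 0.459 and 0.486 in F_FSB. FOSB (chr19:45971253-45978437), its close relative, had 1.32, 0.0552 and 0.199 FPKM in F, 0.356, 0.359 and 0.314 in FSB and 0.698, 0.167 and 0.171 in F_FSB. The groups overlapped for each gene, and replicate 1 of F and then replicate 1 of F_FSB were the 2 highest libraries for each. The Cufflinks interval of FOSB in F replicate 1 was 1.03 to 1.61 FPKM and in F replicate 2 it was 0 to 0.124, so those libraries differed beyond it. Those replicate 1 libraries also held the most CTGF and CYR61, matricellular genes named after their values were seen. CYR61 had 119 FPKM in F replicate 1 and 143 in F_FSB replicate 1, against 34.4 to 103 elsewhere, and CTGF had 253 and 308 against 40.8 to 209. Whether they bear on FOS and FOSB was not tested. Tested without the filter on low values, FOS changed by -0.25 and FOSB by -0.09 for FSB minus F (limma, adjusted p = 0.581 and 0.881).

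FOSL1 (chr11:65659692-65667997), which encodes FRA1, a longer-lived FOS relative that rises with sustained ERK signalling, had 8.43, 5.18 and 2.71 FPKM in F. It had 12.9, 14.4 and 3.08 in FSB and 9.06, 9.54 and 9.44 in F_FSB. FSB replicate 3 stood apart from the other FSB libraries and lay within the range of F. The change was 0.67 for FSB minus F (95% interval -0.51 to 1.85, limma, adjusted p = 0.326) and 0.11 for F_FSB minus FSB (95% interval -1.07 to 1.30, adjusted p = 0.877). Without FSB replicate 3, FOSL1 was higher in FSB than in F by a passing 1.29 (limma, adjusted p = 0.0249), and the change for F_FSB minus FSB turned to -0.50 (adjusted p = 0.283). All F_FSB libraries were above all F libraries. Those groups did not overlap for 13% of all genes, with F_FSB higher for 6.28% and lower for 6.76%. The change of 0.79 did not pass (95% interval -0.40 to 1.97, adjusted p = 0.641). FOSL1 had the second largest spread of the tested genes described here, with an SD over the 9 libraries larger than that of 88.4% of all genes tested.

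FOSL2 (chr2:28615779-28637516), which encodes FRA2, had 14.6, 13.1 and 10.4 FPKM in F, 10.6, 10.5 and 7.19 in FSB and 10.8, 14.7 and 10.1 in F_FSB. FSB replicate 3 was the lowest library for FOSL2, as it was the lowest in its group for FOSL1. The change was -0.40 for FSB minus F (95% interval -0.85 to 0.05, limma, adjusted p = 0.134) and 0.30 for F_FSB minus FSB (95% interval -0.14 to 0.75, adjusted p = 0.244). For F_FSB minus F it was -0.10 (limma, adjusted p = 0.883). FOSL1 and FOSL2 together held most of the FOS family level in every library. The share of FOSL1 in that family was 32.3%, 27.8% and 19.5% in F and 53.2%, 56.2% and 27.1% in FSB. It was 41.7%, 38.3% and 46.8% in F_FSB, above every F library. How often such a share separates F_FSB from F for other genes was not computed. In FSB replicates 1 and 2 FOSL1 exceeded FOSL2, and in the other 7 libraries FOSL2 exceeded FOSL1.

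IER2 (chr19:13261282-13265722), a small immediate early nuclear protein, had 25.4, 18.4 and 20.1 FPKM in F. It had 31.6, 29.6 and 24.7 in FSB and 30.9, 23.1 and 17.4 in F_FSB. F and FSB overlapped through F replicate 1 and FSB replicate 3. The change was 0.41 for FSB minus F (95% interval -0.06 to 0.89, limma, adjusted p = 0.139) and -0.29 for F_FSB minus FSB (95% interval -0.76 to 0.19, adjusted p = 0.298). For F_FSB minus F it was 0.13 (limma, adjusted p = 0.845).

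**Figure D3:**
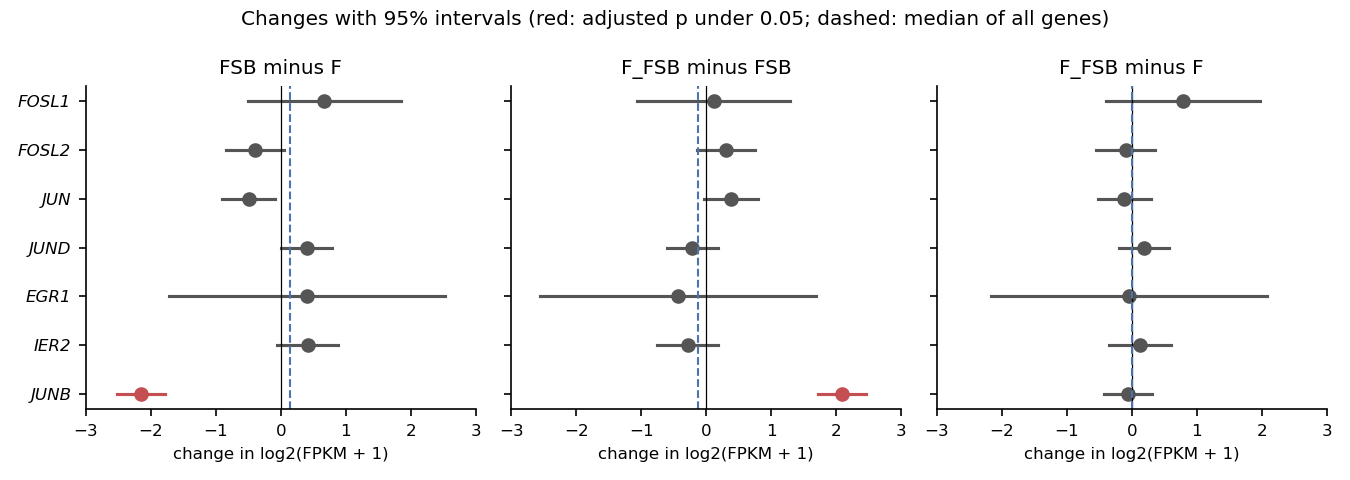
Change in log2(FPKM + 1) with its 95% interval for the 6 genes tested and JUNB in the 3 comparisons; the dashed line is the median of all genes. JUNB is the gene shown past the threshold, at -2.15 and 2.09, and the interval of EGR1 spans -1.72 to 2.53 for FSB minus F.

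EGR1 (chr5:137801181-137805004), the main early growth response factor and a sensor of ERK pulses, had 5.13, 0.620 and 10.0 FPKM in F. It had 2.73, 2.53 and 18.1 in FSB and 6.80, 5.81 and 0.901 in F_FSB. Each group held libraries far apart, and the groups overlapped. The spread was beyond counting error within a library: the Cufflinks interval was 16.9 to 19.4 FPKM in FSB replicate 3, and 2.31 to 3.15 and 2.11 to 2.94 in FSB replicates 1 and 2. The SD of EGR1 over the 9 libraries was larger than that of 95.4% of all genes tested. The change was 0.40 for FSB minus F (95% interval -1.72 to 2.53, limma, adjusted p = 0.752) and -0.44 for F_FSB minus FSB (95% interval -2.57 to 1.68, adjusted p = 0.726). For F_FSB minus F it was -0.04 (95% interval -2.16 to 2.09, adjusted p = 0.994). These intervals are wide enough to hold changes of more than 1 in either direction. Without FSB replicate 3 the changes turned to -0.40 and 0.36 (limma, adjusted p = 0.752 and 0.774).

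EGR2 (chr10:64571756-64578927), which patterns the hindbrain and drives myelination in Schwann cells, had 0.254, 0.0554 and 4.80 FPKM in F. In FSB it was listed at 0 in replicates 1 and 2 and had 0.0540 FPKM in replicate 3, and in F_FSB it had 0.238, 0.605 and 0.176. All FSB libraries lay below the F and F_FSB libraries, but the values of F replicate 2 and FSB replicate 3 were almost level, with overlapping Cufflinks intervals. Of all genes tested, which leave out EGR2, 19.2% had all FSB libraries below F and 19.2% had them below F_FSB. EGR3 (chr8:22545174-22550815), a relative of EGR2 that EGR1 can induce, had 0.0293, 0 and 3.15 FPKM in F, 0, 0 and 0.0756 in FSB and 0.0126, 0.242 and 0.0246 in F_FSB. For each gene F replicate 3 was the highest library and F_FSB replicate 2 the next. The Cufflinks intervals in F replicate 3, 4.20 to 5.40 FPKM for EGR2 and 2.75 to 3.55 for EGR3, were above those of every other library. Tested without the filter on low values, EGR2 changed by -0.95 and EGR3 by -0.66 for FSB minus F (limma, adjusted p = 0.281 and 0.392). The co-repressor NAB1 rose in FSB from 11.4 ± 0.765 to 20.8 ± 4.05 FPKM (SD, n = 3; change 0.80, limma, adjusted p = 0.0114). NAB2 did not pass, at 13.2 ± 3.54 FPKM in F and 13.8 ± 1.27 in FSB.

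F replicate 3 was also the highest library for many ERK feedback genes. These genes, such as DUSP6, a phosphatase of ERK, and the SPRY and SPRED inhibitors, are induced by FGF signalling. Of 14 listed, 9 had their highest value in F replicate 3 (DUSP6, SPRY1, SPRY2, SPRY4, SPRED1, SPRED2, ETV1, ETV4 and IL17RD), whereas 9.12% of all genes tested were highest there. DUSP4, DUSP5, SPRED3, ETV5 and PHLDA1 were highest in other libraries, with DUSP4 at 7.33 FPKM in F replicate 3 and 25.9 in FSB replicate 2. SPRY1 was almost level in F replicates 3 and 2, at 80.9 and 79.6 FPKM. DUSP6 had 85.9 FPKM in F replicate 3 and between 14.1 and 48.2 in the others, and SPRY4 had 71.0 against 10.8 to 61.0. The ETS factor ETV4 had 55.4 FPKM in F replicate 3 and its lowest level, 4.43, in FSB replicate 3, the library with the highest EGR1. ETV1, ETV5, SPRED1 and SPRED3 also had their lowest value in FSB replicate 3. The share of all genes with their lowest value in FSB replicate 3 was not computed. Of the paraxial mesoderm markers, MEOX1 and MEOX2 also had their highest value in F replicate 3. The summed level of 4 such markers ranged from 6.42 to 95.8 FPKM in F, with F replicate 3 the highest, from 9.75 to 12.3 in FSB and from 3.37 to 24.1 in F_FSB. MEOX1 and MEOX2 made up nearly all of the sum in F replicate 3, at 43.2 and 52.3 FPKM. They were next highest in F replicate 2, at 11.3 and 32.8 FPKM, the library with the lowest EGR1, at 0.620. TBX6 was at most 0.258 FPKM in any library, and TCF15 was listed at 0 in all F libraries. The part of these markers in the EGR values was not tested. Between groups, 2 of the 14 feedback genes fell in FSB and 12 did not pass (median change -0.30, against 0.14 for all genes). Over all genes 28.5% were higher and 13.4% lower, so the share of feedback genes called lower was near that of all genes. SPRED3 went from 2.31 ± 0.411 to 0.841 ± 0.254 FPKM and ETV1 from 18.8 ± 5.32 to 9.61 ± 2.25 (SD, n = 3; limma, adjusted p = 0.0145 and 0.0275). Without F replicate 1 or with quantile normalization 4 of them were lower, and without FSB replicate 1 or FSB replicate 3, 1 was. Without F replicate 3, 1 was higher and 2 were lower.

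**Figure D4:**
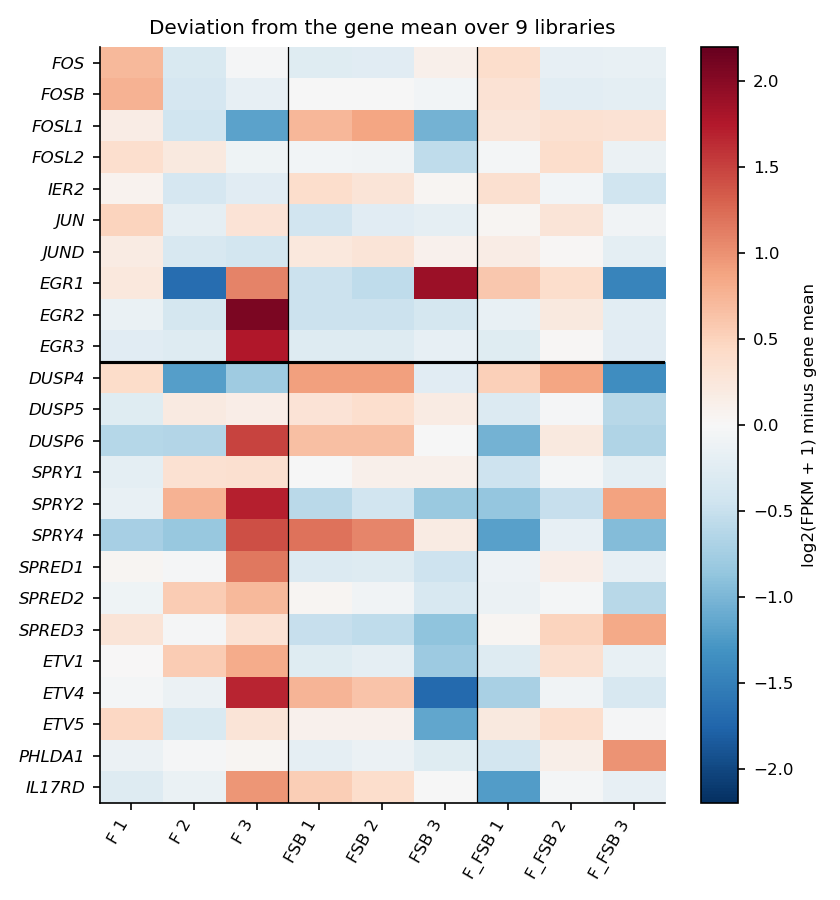
Deviation of log2(FPKM + 1) from each gene's mean over the 9 libraries, for the 10 genes (above the line) and 14 ERK feedback genes (below). F replicate 3 is high for EGR1, EGR2, EGR3 and several feedback genes, FOS and FOSB are highest in F replicate 1, and FSB replicate 3 is highest for EGR1 and low for FOSL1 and ETV4.

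Other immediate early genes moved between media in opposite directions. Of 34 listed, 28 could be tested, and in FSB against F 4 rose, 7 fell and 17 did not pass, with a median change of -0.11 against 0.14 for all genes. The shares called over all genes in this comparison were 28.5% higher and 13.4% lower. KLF10, a zinc finger gene induced early by TGF-β, fell from 15.6 ± 3.69 to 2.83 ± 0.156 FPKM, and IER5 fell from 21.6 ± 3.64 to 7.89 ± 0.557 (SD, n = 3; limma, adjusted p = 0.000162 and 0.000849). KLF6 rose from 26.8 ± 2.78 to 49.4 ± 2.72 FPKM, and HBEGF, a ligand of the EGF receptor, rose from 1.99 ± 1.37 to 25.7 ± 4.67 (limma, adjusted p = 0.000377 and 0.000635). On withdrawal, in F_FSB against FSB, 9 rose, 4 fell and 15 did not pass, against 13.7% higher and 28.2% lower over all genes. Without F replicate 1, 8 were higher and 6 lower in FSB than in F, and without FSB replicate 1, 6 were higher and 4 lower on withdrawal.

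**Figure D5:**
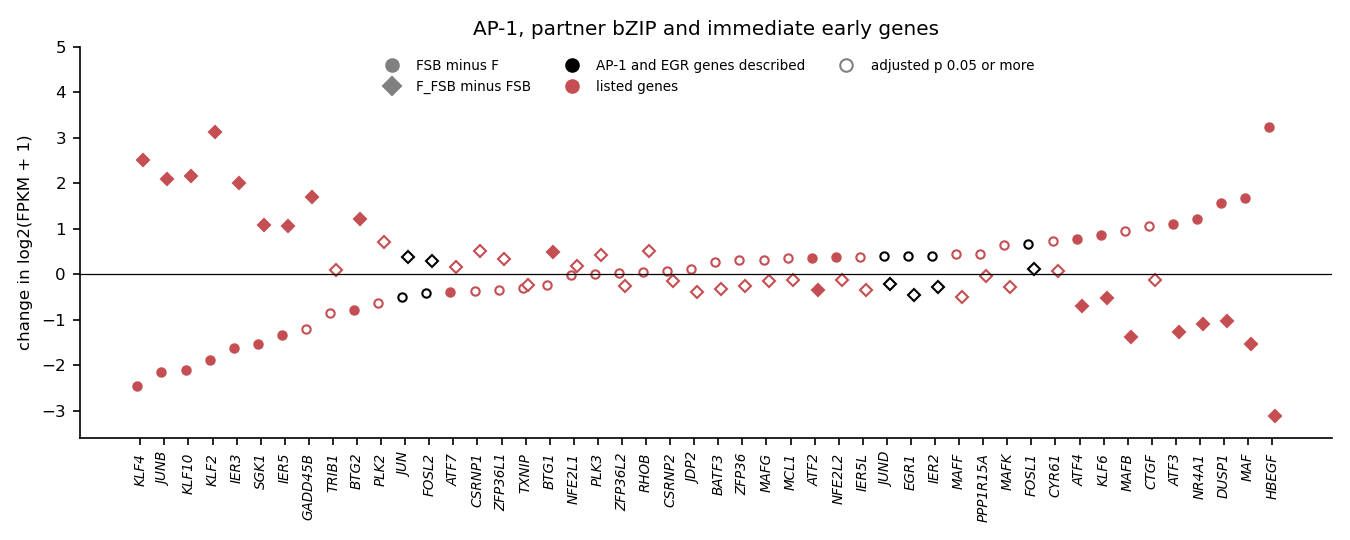
Changes in log2(FPKM + 1) of tested AP-1, partner bZIP and other immediate early genes for FSB minus F (circles) and F_FSB minus FSB (diamonds), ordered by the former; filled symbols passed the test and black marks the genes described in full. The black symbols are all open and lie between -0.49 and 0.67, while KLF4, JUNB and KLF10 stand at the lower left and HBEGF at the upper right.

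Among 16 other AP-1 and partner bZIP genes, 14 could be tested, and in FSB against F 5 rose, 2 fell and 7 did not pass (median change 0.37, against 0.14 for all genes). With 28.5% of all genes higher and 13.4% lower, the share called lower was near that of all genes. Besides JUNB, which fell, ATF2, a dimer partner of JUN, rose from 18.9 ± 0.523 to 24.7 ± 0.961 FPKM. ATF4, the effector of the integrated stress response, rose from 98.3 ± 3.29 to 173 ± 35.2, and MAF rose from 6.92 ± 3.30 to 23.4 ± 6.04 (SD, n = 3; limma, adjusted p = 0.00371, 0.00514 and 0.00609). Without FSB replicate 3, 8 were higher. Leaving out F replicate 2, F replicate 3, FSB replicate 1 or FSB replicate 2 left 1 lower. On withdrawal 1 rose and 5 fell, with 13.7% of all genes higher and 28.2% lower.

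Regulators that act at CArG boxes were called in each direction. Of 8 SRF and ELK regulators, all tested, 4 rose in FSB against F, 2 fell and 2 did not pass (median change 0.05, against 0.14 for all genes). Of all genes, 28.5% were higher and 13.4% lower. SRF itself rose from 13.5 ± 2.44 to 21.1 ± 0.529 FPKM, and its cofactor MKL1 from 9.31 ± 0.465 to 12.1 ± 0.554 (SD, n = 3; limma, adjusted p = 0.00871 and 0.00667). Among the ELK partners of SRF, ELK3 fell from 63.2 ± 4.54 to 35.0 ± 3.53 FPKM and ELK4 from 11.3 ± 3.47 to 2.65 ± 0.260 (limma, adjusted p = 0.000656 and 0.000933). ELK1 did not pass, at -0.24 (adjusted p = 0.0770). Scaling by median ratios left 1 higher and made 3 lower. On withdrawal 2 rose and 4 fell, against 13.7% and 28.2% of all genes, but leaving out any 1 library left between 0 and 3 lower, with 0 without FSB replicate 1 or F_FSB replicate 3, and scaling by median ratios also left 0 lower.

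Genes known as AP-1 targets formed the last list. Of 20 listed, 14 could be tested, and 7 fell, 1 rose and 6 did not pass in FSB against F (median change -1.51, against 0.14 for all genes). Of all genes, 13.4% were lower and 28.5% higher. The matrix protease MMP2 fell from 547 ± 86.6 to 55.3 ± 25.5 FPKM and the heme oxygenase HMOX1 from 7.08 ± 0.672 to 2.08 ± 0.803. TIMP1, a protease inhibitor, fell from 308 ± 121 to 94.3 ± 11.5 FPKM (SD, n = 3; limma, adjusted p = 0.000178, 0.00181 and 0.00796 for the 3 genes in turn). On withdrawal 8 rose and 0 fell, against 13.7% and 28.2% of all genes. The 1 higher gene, TGFB1, did not pass without F replicate 2 or 3 or without any 1 of the FSB libraries. Some cell identity markers moved with the same contrast. Of 9 neural crest markers 7 could be tested, and 4 rose, 0 fell and 3 did not pass in FSB (median change 1.74). On withdrawal 0 of the 7 rose, 5 fell and 2 did not pass. Their summed level was 169 to 199 FPKM in F, 426 to 465 in FSB and 141 to 166 in F_FSB. Of 5 ectomesenchyme markers, 3 fell in FSB (COL1A1, PDGFRA and NT5E) and 2 did not pass. Those were PRRX1, at 144 to 186 FPKM in F and 173 to 184 in FSB, and TWIST2, at 1.51 to 11.7 and 6.05 to 6.56. On withdrawal 2 of the 5 rose, 1 fell and 2 did not pass. The summed level of the 5 was 3976 to 4853 FPKM in F, 423 to 440 in FSB and 4084 to 5049 in F_FSB. COL1A1 made up most of it in F and F_FSB, at 3550 to 4511 and 3825 to 4645 FPKM, and had 156 to 207 in FSB. Of 5 pluripotent markers, LIN28A and DPPA4 rose and 3 were not tested. Their summed level was 1.36 to 6.33 FPKM in F, 82.3 to 96.5 in FSB and 1.50 to 4.13 in F_FSB, with LIN28A at 74.3 to 85.4 in FSB, while POU5F1 was at most 1.15 and NANOG at most 0.247 in any library. The summed level of 4 central neural markers was 31.7 to 80.7 FPKM in F, 193 to 261 in FSB and 24.3 to 46.2 in F_FSB. Most of it in every library was NES, which rose, at 26.6 to 78.7 FPKM in F and 191 to 256 in FSB. NCAM1 did not pass, at 1.82 to 4.96 FPKM in F and 2.49 to 4.24 in FSB. SOX1 was at most 0.0120 and PAX6 at most 0.217. The part of these cell states in the target genes, and any link to the AP-1 levels, was not tested.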

How the data were processed

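RNA from 9 cultures was sequenced with a strand-specific SureSelect kit, per the labels' protocols. Each library has 1 Cufflinks gene table, in which the authors deposited FPKM values and their intervals. Reads were aligned with TopHat2 2.0.12 and quantified with Cufflinks 2.1.1 on GRCh37, per the submitters' processing notes. For options, annotation and strand setting the labels give nothing, so overlapping and antisense genes are uncertain. The tables hold no fragment counts, and relative depth was estimated from interval widths over 1303 genes, assuming Poisson intervals.

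Loci with a status other than OK in any library (95) were left out, and the test covered the 13216 genes that reached 1 FPKM in 3 libraries. limma 3.58.1 (R 4.3.3) was fitted to log2(FPKM + 1) of all 9 libraries at once, with its mean-variance trend, two-sided tests and Benjamini-Hochberg adjustment over all genes tested. The fit was tested on simulated data. Tables and figures were made with Python 3.11.15, pandas 2.3.3 and matplotlib 3.10.9.

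The 10 genes and all lists were chosen with earlier results of these data known. Named genes were the 10 genes, JUNB, from each list up to 4 genes by smallest adjusted p in FSB minus F, and the 3 genes closest in pattern to each of the 4 tested genes with the largest SD. Other genes were named after their values were seen. Strand for the upstream windows came from GENCODE symbols, and starts are those of the deposited loci, so genes with several starts have 1 window. The window before FOSB is not reported here. Alternatives were the pseudocount (0.1), no filter, 3 scalings, a replicate block, no trend, fits of the 2 groups compared and leaving out each library.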

Additional observations from a re-analysis of the deposited data

How the results depend on the processing

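Of 306 alternative values for the 18 changes of the 6 tested genes, 280 kept their direction and side of the threshold, 12 passed where the reported value did not, and 14 turned sign. In FSB minus F, 1 of the 6 tested genes was called with scaling by median ratios, quantile normalization or scaling to the same sum (JUN in each, at -0.54 with the last). With the replicate block 2 of the 6 were called, FOSL2 and JUND (limma, adjusted p = 0.0495 and 0.0489). The reported fit called 41.9% of all genes in this comparison, and the share with the block is not given here. In F_FSB minus FSB, 1 was called with scaling by median ratios, quantile normalization or only the 2 groups compared, JUN in each. Leaving out 1 library gave between 0 and 1 called in each of these comparisons. Of all 13216 genes it gave 3880 to 5764 called in FSB minus F and 4070 to 5429 in F_FSB minus FSB. In F_FSB minus F, no alternative called any of the 10.

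Signs turned for 7 of the 18 changes. For F_FSB minus F, EGR1 was 0.033 with a pseudocount of 0.1, and IER2 -0.0088 with scaling to the same sum. Leaving out 1 library gave -0.82 to 0.61 for EGR1, -0.25 to 0.0069 for FOSL2, -0.070 to 0.32 for IER2 and -0.31 to 0.032 for JUN. It gave -0.40 to 1.00 for EGR1 in FSB minus F, and -0.86 to 0.36 for EGR1 and -0.50 to 0.46 for FOSL1 in F_FSB minus FSB. The cause was not tested.

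Over all genes, F_FSB minus F gave 0 calls with no filter or with the replicate block, and 0 to 77 when 1 library was left out, 77 without F replicate 1. Whether same-numbered cultures are related was not settled. Deviations from group means correlated over 0.1 in 1 of 9 same-numbered pairs (-0.14 to 0.29) and in 2 of 18 pairs of different number (-0.23 to 0.13). The 0.29, the highest of all pairs, was F replicate 1 with F_FSB replicate 1. In 5 of 18 matches a library correlated best with its own number. Each group has 3 libraries, so an exact permutation test could not go below 0.1. For EGR1, FOSL1 and ETV4, FSB replicates 1 and 2 were close to each other and FSB replicate 3 lay apart. For JUN, FSB replicates 2 and 3 were the closer pair. How independent the 3 FSB cultures were of each other was not tested. Low genes (FOS, FOSB, EGR2, EGR3) are limited by depth, most in F_FSB replicate 2.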

Other observations

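Genes with the profile closest to each of the 4 most variable tested genes were found by the mean absolute difference of centred log2(FPKM + 1) profiles over the 9 libraries, among 12360 genes. For EGR1 the closest were PCDH19, SHISA2 and VCAN, at 0.48, 0.49 and 0.50 on the log2 scale. PCDH19, a protocadherin, had 16.0 FPKM in FSB replicate 3 and 0.805 in F_FSB replicate 3, libraries in which EGR1 was high and low. SHISA2 had 111 and 13.3 FPKM in those libraries. In F replicate 3, where EGR1 was second highest at 10.0 FPKM, PCDH19 had 3.49 and SHISA2 42.0, whereas VCAN had its highest value, 245. For FOSL1 they were TAGLN2, CASP4 and KRT18, at 0.22, 0.25 and 0.28, and TAGLN2, an actin-binding protein, had 50.2 FPKM in F replicate 3 and 53.6 in FSB replicate 3 against 79.8 to 164 elsewhere. For IER2 the closest was another immediate early gene, IER5L, at 0.07, followed by ZSWIM4 and NEDD4 at 0.08 each. For JUN they were ANKRD50, SYNJ2 and ARFRP1, at 0.09, 0.09 and 0.11. Such distances depend on a gene's own spread, so they cannot be compared between the 4 genes.

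Of 11 ERK pathway kinases, 10 could be tested, and in FSB against F 2 rose and 8 did not pass, a share below the 28.5% of all genes called higher. RPS6KA1, which encodes the ERK-activated kinase RSK1, rose from 3.25 ± 0.782 to 11.9 ± 0.930 FPKM (SD, n = 3; limma, adjusted p = 0.000609). Of 7 JNK pathway kinases 4 rose and 3 did not pass, against the same 28.5%, with the neuronal kinase gene MAPK10 rising from 0.423 ± 0.193 to 2.72 ± 0.470 FPKM (limma, adjusted p = 0.00171). With scaling by median ratios, 1 of the former and 2 of the latter were higher. Leaving out F replicate 2, F replicate 3 or FSB replicate 2 left 1 ERK pathway kinase higher, and leaving out F replicate 1, F replicate 3 or FSB replicate 1 left 2 JNK pathway kinases higher. Heat shock genes, which often rise with immediate early genes when cells are handled, gave 2 higher, 1 lower and 9 that did not pass among 12, and between 1 and 3 higher and between 0 and 1 lower when 1 library was left out. These shares were below the 28.5% of all genes called higher and the 13.4% called lower. HSP90AA1 went from 174 ± 26.0 to 317 ± 46.5 FPKM (limma, adjusted p = 0.00938). The inducible HSPA1A lay between 35.8 and 68.7 FPKM in all 9 libraries, and it was 49.0 in F replicate 1, the library with the most FOS and FOSB. Whether handling bears on the levels of FOS, FOSB or the other genes described was not tested.

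NR4A2, an orphan nuclear receptor gene picked out for its values, had 21.1 FPKM in F_FSB replicate 3 and at most 1.39 in any other library. EGR1 was at 0.901 FPKM in that library.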
